A study of Homo sapiens with 12 samples.

Results

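NF-kB is a family of transcription factors that work as pairs of subunits. In resting cells IkB proteins hold most of them in the cytoplasm. In the canonical arm, cytokine and Toll-like receptors activate the IKK kinases, IkB is degraded, and dimers of RELA or REL with p50, the product of NFKB1, enter the nucleus. In the non-canonical arm, receptors such as the lymphotoxin beta receptor stabilise the kinase NIK, which leads to processing of the NFKB2 product p100 into p52 and to nuclear dimers of RELB with p52. Several members are themselves NF-kB target genes and close feedback loops, among them NFKBIA, NFKBIE, TNFAIP3, NFKB2 and RELB. In breast cancer lines of basal and mesenchymal type, including MDA-MB-231, NF-kB is known to be active without added cytokine and to drive inflammatory chemokines.

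The account covers 10 genes: the subunits RELB, NFKB2, RELA, REL and NFKB1, the inhibitors NFKBIA, NFKBIB and NFKBIE, and the feedback genes TNFAIP3 and BIRC3. All probes paired with these symbols were taken. RELB was chosen by its measured signal, which had been seen to be lower after siRNA than after scramble, so all member values against scramble are given as a description, without a p-value. Of the 10 genes, 9 had a probe, with 13 probes among the 47311 that held values, and 11 of the 13 passed the detection filter, which left 9 genes of 12048 tested. The filter asked for a detection p below 0.05 on at least 3 arrays. No probe was paired with BIRC3, so its expression was not analysed here, and it appears only in the promoter search.

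The cells were MDA-MB-231, a triple-negative human breast cancer line of mesenchymal appearance, profiled on 12 Illumina HumanHT-12 V4.0 arrays. Per the labels, 9 arrays come from transfection with a SMART pool of siRNA to ARF1, a small GTPase of the Golgi, and the other 3 from scramble siRNA (named nonsilence in the source names). The transfections used Oligofectamine and a final 100 nM of siRNA. Source names part the 9 siRNA arrays into sets of 3 arrays: set ARF-1, set ARF-2 and set ARF-4. The labels do not say what the set numbers mean, how long after transfection cells were collected, or whether replicates came from separate cultures. The p-values therefore reflect no more than the scatter among these arrays, and that scatter may be technical. On the brightest of its 3 probes, ILMN_1802203, ARF1 itself was not lower on the arrays labelled ARF1 siRNA. That probe averaged 11.78 ± 0.07 on them (log2 normalized signal, SD, n = 9) and 11.64 ± 0.06 on scramble arrays (SD, n = 3). The difference was 0.14 ± 0.08 (SE, limma adjusted p = 0.321). Values of the other ARF1 probes are not given here. The groups are named below by their labels.

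Mean raw signal per array lay between 303 and 518, and 39.1% to 42.8% of probes were detected on an array. VIM, CD44, CAV1, MSN, EGFR, TGFBI and S100A6, listed as typical of this line, were each detected on 12 arrays. Of genes listed as absent or low in it, ESR1, PGR and CDH1 were detected on 0, while KRT8 was detected on 12 and GATA3 on 4. Of markers of other cell types, PTPRC, CD3E, CDH5, VWF and PDGFRA were detected on 0 arrays, CD14 and PECAM1 on 12, ADIPOQ on 6, LYZ on 3, and MS4A1 and COL1A1 on 2. In bulk RNA, fewer cells of a type and less RNA per cell cannot be told apart.

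Several members carry NF-kB binding motifs close to their transcription start, and some of these stretches are shown here because they belong to members that were lower than scramble on all siRNA arrays (TNFAIP3 and NFKBIB) and to members whose arrays overlapped between the groups (NFKBIA, NFKB1 and NFKB2). Windows from 250 bases before to 50 bases after the RefSeq start (GRCh38.p14) were searched on both strands for the degenerate kB consensus of 10 bases. Matches, in capitals, can overlap, as they do in NFKBIB, whose palindrome-like core counts on each strand. Each stretch is written 5′ to 3′ along the gene.
TNFAIP3, chr6:137867167-137867238, plus strand: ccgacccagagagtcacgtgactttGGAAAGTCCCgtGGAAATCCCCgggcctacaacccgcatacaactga
NFKBIB, chr19:38899932-38899960, plus strand: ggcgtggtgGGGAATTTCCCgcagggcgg
NFKBIA, chr14:35404796-35404855, minus strand: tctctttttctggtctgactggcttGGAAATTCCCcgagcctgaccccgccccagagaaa
NFKB1, chr4:102501285-102501344, plus strand: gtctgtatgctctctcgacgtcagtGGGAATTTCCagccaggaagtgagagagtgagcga
NFKB2, chr10:102395675-102395702, plus strand: ggtattttcGGGACTTTCCtaagctgct

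Of the 10 genes, 8 had a window in the table, and 7 of the 8 held a match in at least 1 of their windows, the exception being RELA. No window was used for RELB and NFKBIE. Over all genes with a window the share with a match was 13.3% of 27305, and over all windows 11.3% of 35116. A match describes letters in a window and is no evidence of binding in these cells. Both kinds of member carried matches, those that were lower than scramble throughout and those that overlapped with it.

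RELB, the subunit that pairs with p52 in the non-canonical arm, was lower on every siRNA array than on every scramble array. Its probe ILMN_1811258 read 6.51, 6.44 and 6.47 in set ARF-1 (log2 normalized signal, as for all levels below), 6.50, 6.88 and 6.83 in set ARF-2, 6.92, 7.05 and 7.12 in set ARF-4, and 7.98, 7.98 and 8.19 under scramble. The highest siRNA array stayed below the lowest scramble array, and the sets followed the order ARF-1, ARF-2, ARF-4 from low to high. Over all 9 arrays the log2 difference from scramble was -1.30 ± 0.15 (SE), or 0.405 of the scramble signal. It was -1.57 ± 0.11 in set ARF-1, -1.32 ± 0.11 in set ARF-2 and -1.02 ± 0.11 in set ARF-4, and these 3 differences share the same scramble arrays. Without background correction the difference over 9 arrays was -0.86, with the same sign.

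NFKB2, which encodes the p100 precursor of RELB's partner p52, moved little. Its probe ILMN_2390859 read 7.05, 6.92 and 6.88 in set ARF-1, 6.97, 7.24 and 7.38 in set ARF-2, 7.11, 7.06 and 7.20 in set ARF-4, and 7.12, 7.30 and 7.45 under scramble. siRNA and scramble arrays overlapped, and the difference over 9 arrays was -0.20 ± 0.12 (SE). A second probe, ILMN_1799062, gave -0.22 ± 0.13 and also overlapped. The third, ILMN_2247868, was detected on 0 arrays and was not tested.

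RELA, the main activating subunit of the canonical arm, was lower on average but overlapped with scramble. It read 6.40, 6.73 and 7.34 in set ARF-1 (ILMN_1705266), 6.77, 6.64 and 6.59 in set ARF-2, 7.12, 7.02 and 7.33 in set ARF-4, and 7.68, 7.57 and 7.29 under scramble. ARF-1 replicate 3 and ARF-4 replicate 3 stood above scramble replicate 3, and ARF-1 replicate 3 lay 0.61 above the next array of its set. Over 9 arrays the difference was -0.63 ± 0.19 (SE), and -0.39 without background correction.

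NFKB1, which encodes p105 and its product p50, showed almost no mean difference from scramble, -0.02 ± 0.11 (SE). Its levels were 10.26, 10.27 and 10.43 in set ARF-1 (ILMN_1714965), 10.30, 10.20 and 10.30 in set ARF-2, 10.60, 10.56 and 10.52 in set ARF-4, and 10.49, 10.39 and 10.32 under scramble. The 3 ARF-4 arrays were the highest of all 12. REL, the canonical subunit best known from lymphocytes, was near the detection limit: ILMN_1766085 was detected on 4 arrays, 1 in each group, and ILMN_2124064 on 2, both scramble. The first read 4.47, 4.73 and 5.14 in set ARF-1, 4.94, 5.04 and 4.80 in set ARF-2, 4.87, 5.04 and 4.63 in set ARF-4, and 4.76, 4.79 and 4.94 under scramble, with a difference of 0.02 ± 0.13 that says little at this signal.

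**Figure D1:**
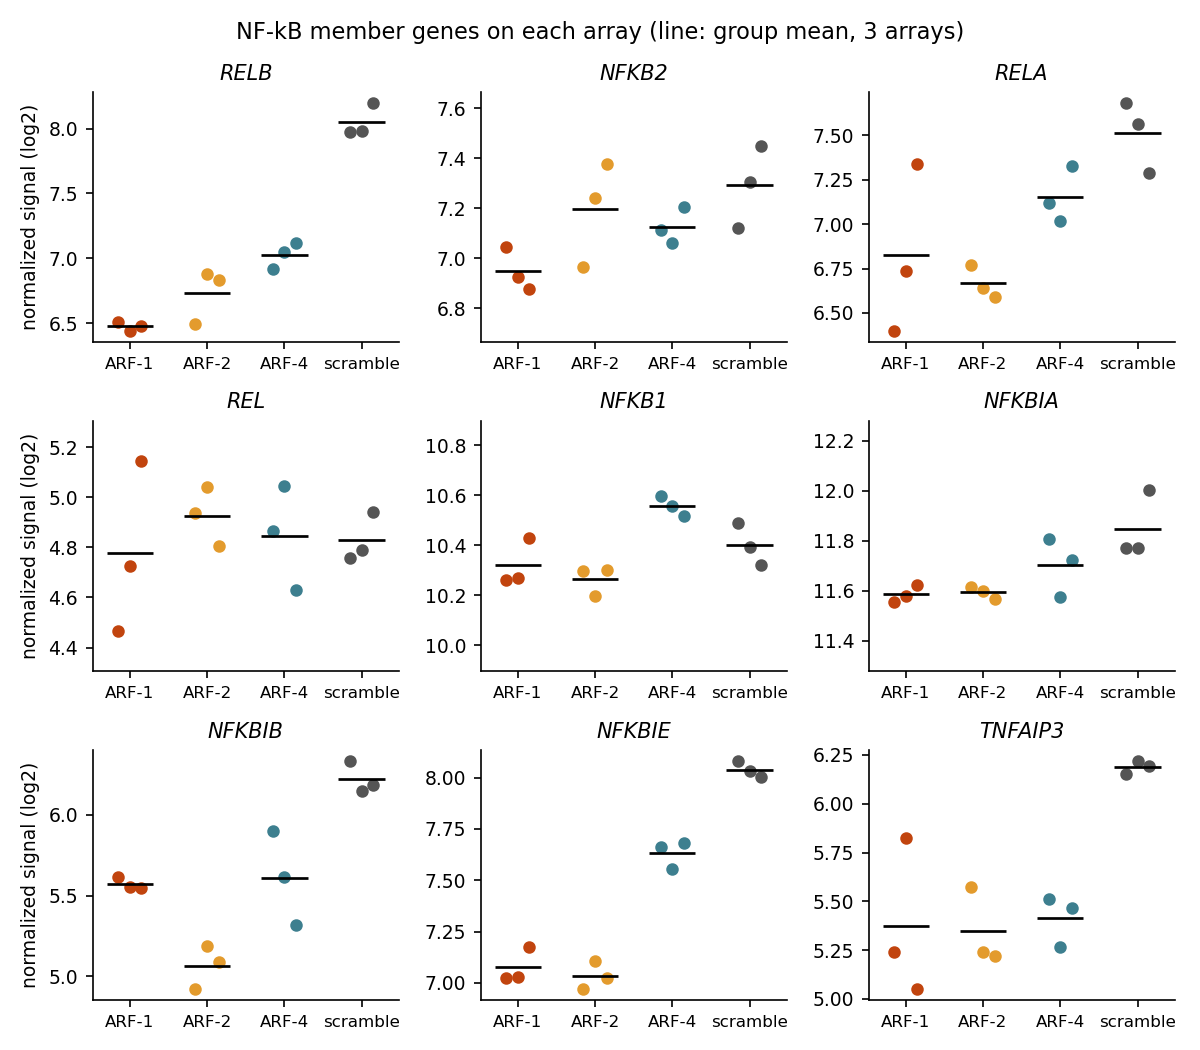
Normalized signal (log2, y axis, own range in each panel) of the 9 measured NF-kB genes on each array, by siRNA set and scramble, with a line at each group mean of 3 arrays. For RELB, NFKBIB, NFKBIE and TNFAIP3 all 9 siRNA arrays lie below the 3 scramble arrays, while NFKB2, RELA, REL, NFKB1 and NFKBIA overlap.

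Among the inhibitors, NFKBIE and NFKBIB were below scramble on all 9 siRNA arrays and NFKBIA was not. NFKBIE, the gene of IkB epsilon, is induced late after NF-kB activation and retains RELA and REL dimers. It read 7.03, 7.03 and 7.17 in set ARF-1 (ILMN_1717313), 6.97, 7.11 and 7.02 in set ARF-2, 7.66, 7.55 and 7.68 in set ARF-4, and 8.08, 8.03 and 8.00 under scramble. The ARF-4 arrays fell in a gap between the other 2 sets and scramble. Differences from scramble were -0.96 ± 0.09 (SE) in set ARF-1, -1.01 ± 0.09 in set ARF-2 and -0.41 ± 0.09 in set ARF-4.

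NFKBIB encodes IkB beta, which binds the same dimers and is degraded more slowly. Its brighter probe, ILMN_1690473, was detected on 11 arrays and read 5.62, 5.55 and 5.55 in set ARF-1, 4.92, 5.19 and 5.09 in set ARF-2, 5.90, 5.61 and 5.32 in set ARF-4, and 6.33, 6.14 and 6.19 under scramble. Set ARF-2 was the lowest on this probe, unlike for RELB, but the probe was detected on only 2 of the 3 ARF-2 arrays. The second probe, ILMN_1674152, was detected on 9 arrays, overlapped between siRNA and scramble, and differed by -0.48 ± 0.18 (SE) against -0.80 ± 0.17 for the first, so the separation of the groups rests on 1 of 2 probes. Its means were 5.01 in set ARF-1, 5.13 in set ARF-2, 5.34 in set ARF-4 and 5.64 under scramble. That is the group order of RELB, so the place of set ARF-2 also depended on the probe. Without background correction the first probe's difference was -0.31.

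NFKBIA, the gene of IkB alpha and the best known feedback inhibitor, read 11.56, 11.58 and 11.62 in set ARF-1 (ILMN_1773154), 11.62, 11.60 and 11.57 in set ARF-2, 11.81, 11.57 and 11.72 in set ARF-4, and 11.77, 11.77 and 12.002 under scramble. Only ARF-4 replicate 1 of the siRNA arrays reached into the scramble range. The difference over 9 arrays was -0.22 ± 0.09 (SE).

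TNFAIP3 encodes A20, a ubiquitin-editing enzyme that shuts off canonical signalling. It read 5.24, 5.82 and 5.05 in set ARF-1 (ILMN_1702691), 5.58, 5.24 and 5.22 in set ARF-2, 5.51, 5.27 and 5.47 in set ARF-4, and 6.15, 6.22 and 6.19 under scramble. No siRNA array reached the scramble range, and the 3 sets lay on top of each other, with differences of -0.81, -0.84 and -0.77 (SE 0.17 each). The difference over 9 arrays was -0.81 ± 0.14, and -0.31 without background correction.

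Read by arm, the members did not divide cleanly. Of the non-canonical pair, RELB was far below scramble and NFKB2 was close to it. Among canonical subunits RELA was lower on average, and NFKB1 and REL were within 0.03 of 0. The median difference over 9 arrays was -0.75 for the 2 non-canonical subunits, -0.02 for the 3 canonical subunits and -0.79 for the 3 inhibitors, beside -0.00 for all 12048 genes. With 2 genes in a group such a median is only the midpoint between them, here NFKB2 and RELB, which was chosen for its low signal in this comparison. The canonical median is the value of NFKB1 itself, and REL was near the detection limit. These medians are a description and no test of one arm against the other.

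Set against the other subunits on the same array, RELB's change from the scramble mean was the most negative on all 9 siRNA arrays. It was below RELA's change by a log2 difference that averaged -0.67 and ranged from -1.41 to -0.29. Against NFKB2 it averaged -1.10 (range -1.30 to -0.77), and against NFKB1 it averaged -1.28 (range -1.60 to -0.97). The distance to RELA was smallest on ARF-2 replicate 3 and largest on ARF-1 replicate 3, the array on which RELA stood above the rest of its set. RELB was chosen for its low signal on these same arrays, so its rank among the subunits is a description and no test.

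**Figure D2:**
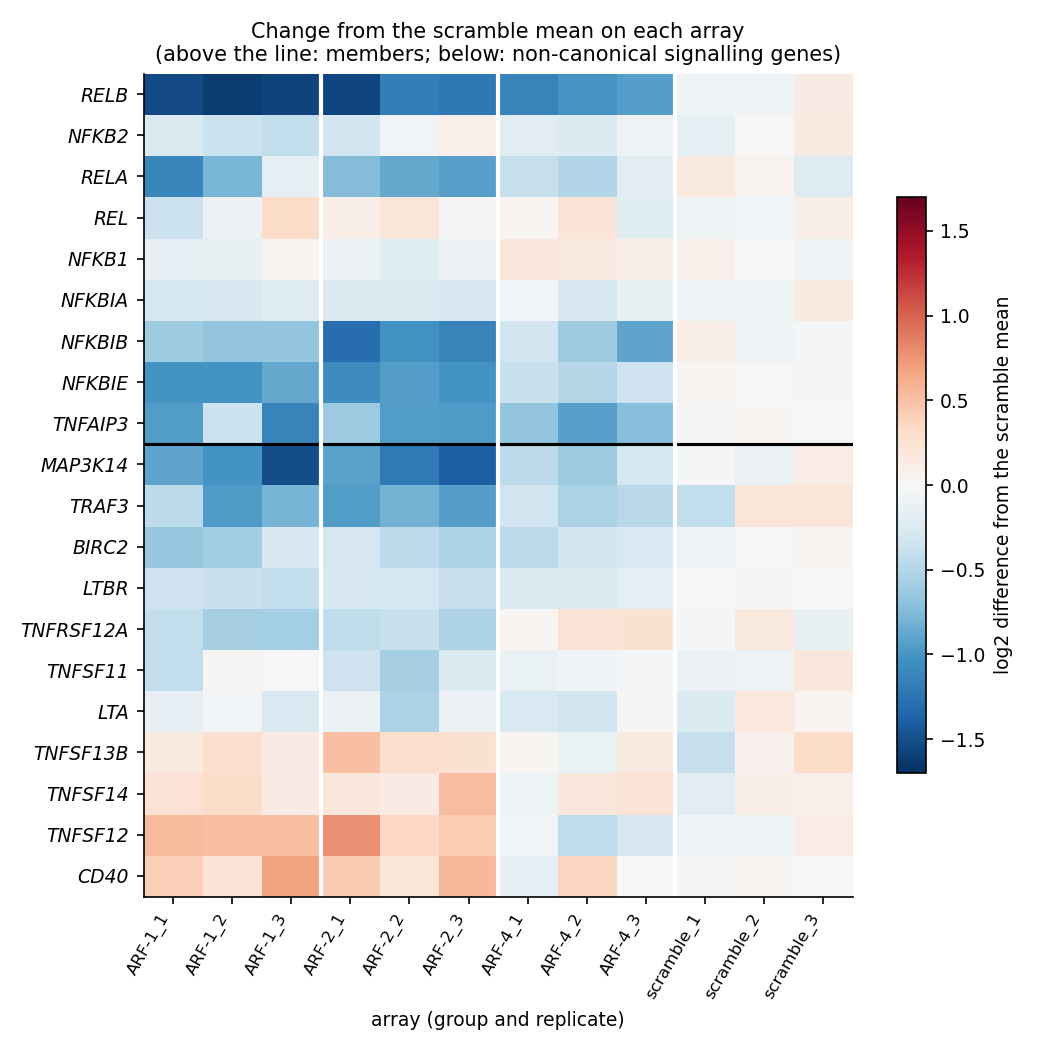
Log2 difference from the scramble mean (colour) for the 9 measured members and, below the line, the 11 tested genes of non-canonical signalling, on each of the 12 arrays. RELB is the darkest row among the members, at -1.61 to -0.93 on the siRNA arrays, and MAP3K14 follows the same shading with a paler ARF-4 block.

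Across the members, 8 of 9 mean differences from scramble were below 0 and 4 of 9 genes had all siRNA arrays below all scramble arrays, beside 7.16% of all genes tested. Nothing is read from this share, because the same siRNA and scramble arrays served to choose the members, and no member is called against scramble, over 9 arrays or by set.

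**Figure D3:**
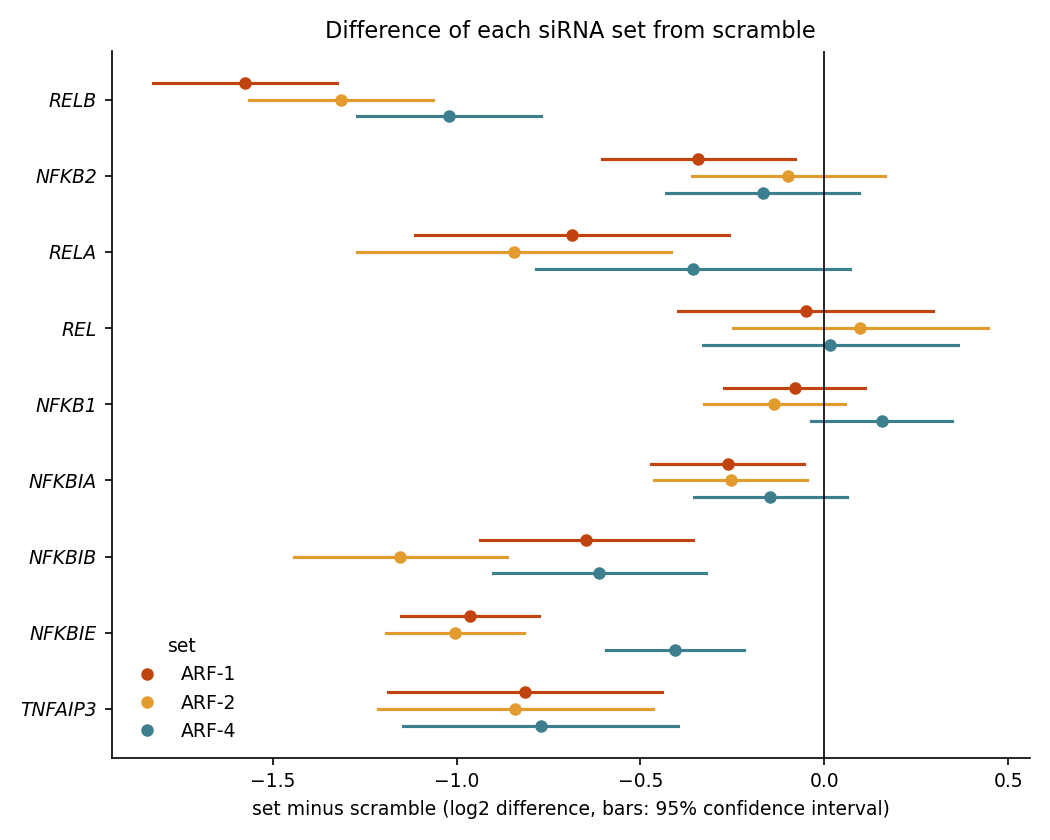
Log2 difference of each siRNA set from scramble for the 9 measured members, with 95% confidence intervals from the fit of 4 group means, and the 3 sets sharing the same scramble arrays. The intervals describe scatter and are no test, because the same arrays served to choose the members. RELB is lowest in set ARF-1 (-1.57) and NFKBIE in set ARF-2 (-1.01), and the ARF-4 points of RELB, RELA and NFKBIE lie nearest to 0.

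Whether the members differ between the 3 siRNA sets does not involve the scramble level, and was tested. A moderated F-test over the sets (limma, Benjamini-Hochberg adjustment over 22195 probes) was passed by RELB (adjusted p = 0.013), NFKBIB (0.0177) and NFKBIE (0.000634), so by 3 of 9 members. Among all genes tested 24.1% passed, so the count is not a result about the members as a family. RELA (0.202), NFKB2 (0.319), NFKBIA (0.608), REL (0.786) and TNFAIP3 (0.954) did not pass, and NFKB1 missed the threshold at 0.062, though it passed without background correction (0.00704), with a background offset of 50 (0.0251), under a stricter filter of detection p below 0.01 on all arrays (0.0212) and with a trended, robust variance prior (0.0101). With ARF-1 replicate 3 left out, RELA reached an adjusted p of 0.0263.

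RELB and NFKBIE were higher in set ARF-4 than in set ARF-1. RELB differed by 0.55 ± 0.11 (SE, limma adjusted p = 0.00501), with all 3 ARF-4 arrays above all 3 ARF-1 arrays. NFKBIE differed by 0.56 ± 0.09 (adjusted p = 0.000828), again without overlap. These were 2 of 9 members, beside 12% of all genes higher in that contrast, and 4 of 9 (RELB, NFKB1, NFKB2 and NFKBIE) had all ARF-4 arrays above all ARF-1 arrays, beside 21% of all genes. Under median scaling both lost the call, RELB at an adjusted p of 0.097 and NFKBIE at 0.0683.

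Against set ARF-2, set ARF-4 was higher for 3 of 9 members, beside 11.2% of all genes. NFKBIE differed by 0.60 ± 0.09 (SE, limma adjusted p = 0.000542) and NFKBIB by 0.54 ± 0.13 (adjusted p = 0.0133), both without overlap of the arrays, as for 5 of 9 members (with RELB, RELA and NFKB1), beside 20.1% of all genes. The NFKBIB call was lost without background correction (limma adjusted p = 0.0527), under median scaling (0.135) and without ARF-2 replicate 1 (0.0532). It was also lost for the mean of its probes (0.088) and on the second probe (0.553), whose arrays overlapped. NFKB1 differed by 0.29 ± 0.09 (adjusted p = 0.0353), but leaving out any 1 of the 6 arrays compared raised its adjusted p to between 0.0565 and 0.111. The NFKB1 call was also lost under median scaling (0.336) and with the replicate block (0.0532). RELB was higher by 0.29 ± 0.11 on all 3 arrays without passing (adjusted p = 0.0975), with a 95% interval from 0.04 to 0.54. Under the stricter filter of detection p below 0.01 on all arrays RELB did pass (0.0445). RELA was higher by 0.49 ± 0.20 without passing (adjusted p = 0.107). It passed without background correction and with the authors' values (0.0339 each), with an offset of 50 (0.0422), with a trended prior (0.0309) and without ARF-1 replicate 3 (0.0272).

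Sets ARF-2 and ARF-1 were told apart by 0 of 9 members in limma, with 1 higher and 1 lower at an unadjusted p below 0.05. Over all 22195 probes that contrast gave 14 calls (0.0631%), and 1982 probes had an unadjusted p below 0.05, in either direction. RELB differed by 0.26 ± 0.11 (SE, adjusted p = 0.544, 95% interval 0.01 to 0.51) and NFKBIB by -0.51 ± 0.13 (adjusted p = 0.294, interval -0.80 to -0.22). The second NFKBIB probe had the other sign, at 0.12 (adjusted p = 0.913). In the order of RELB levels, ARF-1 and ARF-2 as well as ARF-2 and ARF-4 are therefore neighbours that did not pass in the fit used throughout. ARF-1 and ARF-4 did pass in it.

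**Figure D4:**
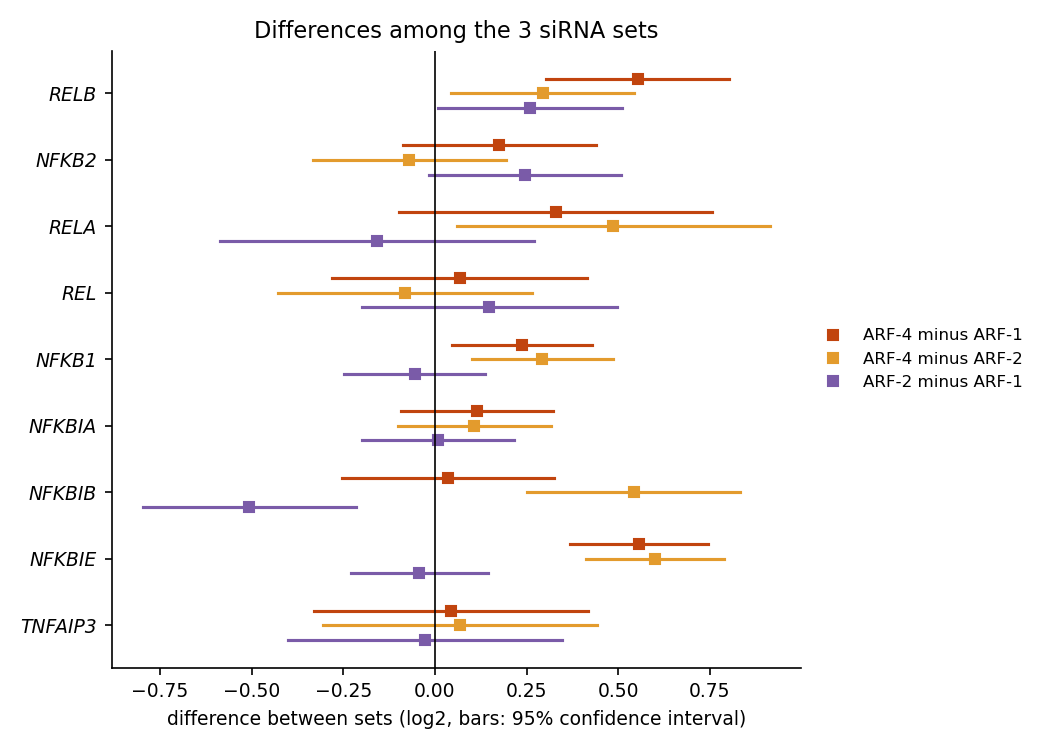
Log2 differences between the siRNA sets for the 9 measured members, with 95% confidence intervals from limma. NFKBIE stands clear of 0 for ARF-4 minus ARF-1 (0.56) and ARF-4 minus ARF-2 (0.60), RELB for ARF-4 minus ARF-1 (0.55), and TNFAIP3 lies near 0 for all 3 contrasts within intervals of about ± 0.4.

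The call for NFKBIB between sets depended on the setting. Its F-test adjusted p was 0.0786 without background correction, 0.146 under median scaling, 0.0786 without ARF-2 replicate 1, 0.18 for the mean of its probes and 0.517 for the second probe alone. RELB lost its F-test call under median scaling (adjusted p = 0.214).

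Over the 12 arrays the RELB signal ran most closely with NFKBIE among the members (Pearson r = 0.918), followed by NFKBIA (0.802), TNFAIP3 (0.789), NFKBIB (0.763), RELA (0.713) and NFKB2 (0.686). NFKB1 (0.245) and REL (-0.009) did not follow it. Among 1931 genes detected on every array with an SD of at least 0.3, the patterns most like RELB were those of CIC (0.980), TOR4A (0.971), SAPCD2 (0.970), BCL7B (0.961), SPDEF (0.960) and CREBBP (0.958). The most opposite were PHGDH (-0.989), OXLD1 (-0.984) and MAOA (-0.984). These values describe 4 groups of 3 arrays that share a group level, and are not counted as evidence.

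CIC, a transcriptional repressor, averaged 6.73 ± 0.05 in set ARF-1, 6.84 ± 0.05 in set ARF-2, 7.15 ± 0.06 in set ARF-4 and 7.64 ± 0.07 under scramble (SD, n = 3 each). It kept the group order of RELB. PHGDH, the first enzyme of serine synthesis, ran the opposite way, at 10.58 ± 0.14 in set ARF-1, 10.26 ± 0.11 in set ARF-2, 10.00 ± 0.07 in set ARF-4 and 8.84 ± 0.06 under scramble.

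Around the members, 117 other pathway genes were listed by role, of which 113 had a probe and 101 were tested. In the 9 siRNA arrays against the 3 scramble arrays (limma, 2 condition means), 8 rose and 15 fell, 22.8% of the lists beside 12.5% of all genes (6.5% higher and 5.99% lower, and 10.9% of probes). The excess of falls did not hold under every setting: a random block for the set (estimated correlation 0.289) left 4 rises and 2 falls, and leaving out scramble replicate 1, 2 or 3 left 5 rises with 5, 2 or 3 falls. The balance over all probes moved too. Rises were 61.9% of all called probes with the random block, beside 51.5% without it. They were 57.8%, 57.0% and 56.6% without scramble replicate 1, 2 and 3. The choice of the pathway genes was not based on their values, but it was made with earlier results of these data known. All of these calls rest on 3 scramble arrays: with scramble replicate 1, 2 or 3 left out, 10, 7 or 8 of the 23 stayed past the threshold, with no change of sign. The 6 called in every fit that left out 1 array, and also the 6 called with the random block, were CCL2, CREBBP, CSF3, CXCL8, IL1A and NINJ1. Of these, CCL2 passed the detection filter only through the scramble arrays, where it was high, so its call is no independent support.

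**Figure D5:**
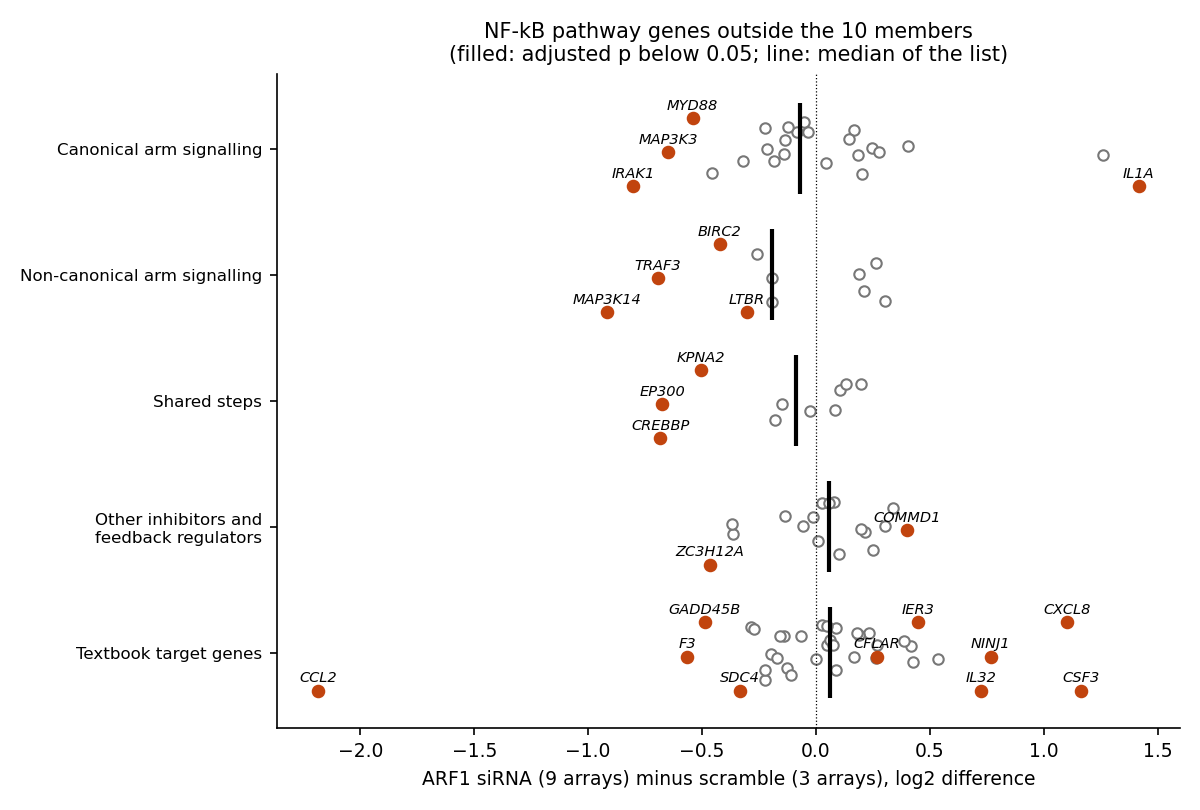
Log2 difference of the 9 siRNA arrays from the 3 scramble arrays for 101 NF-kB pathway genes outside the members, by list (filled points passed an adjusted p of 0.05, vertical bars are list medians). In non-canonical signalling and in the shared steps all filled points lie left of 0, and the targets reach from CCL2 at -2.19, a measured value where the siRNA arrays were below detection, to CSF3 at 1.16.

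In non-canonical signalling, 4 of 11 tested genes fell (36.4%) and 0 rose in limma, and the list median was -0.19. At an unadjusted p below 0.05, 4 were lower and 0 higher, beside 5930 of all 22195 probes in either direction. All 4 calls were lost with the random block, at adjusted p = 0.0701 for MAP3K14, 0.105 for TRAF3, 0.131 for BIRC2 and 0.166 for LTBR. MAP3K14, which encodes NIK, read 5.78, 5.66 and 5.17 in set ARF-1, 5.76, 5.47 and 5.29 in set ARF-2, 6.23, 6.07 and 6.38 in set ARF-4, and 6.66, 6.57 and 6.80 under scramble. It was lower on 9 of 9 arrays, by a log2 difference of -0.92 ± 0.22 (SE, adjusted p = 0.015). Like RELB it was nearest to scramble in set ARF-4, and its sets differed (F-test adjusted p = 0.011, or 0.0585 without ARF-4 replicate 3). Without scramble replicate 1, 2 or 3 its adjusted p against scramble was 0.0607, 0.0545 or 0.0816.

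TRAF3 and BIRC2, parts of the ubiquitin ligase complex that degrades NIK in resting cells, fell as well. TRAF3 differed by -0.69 ± 0.17 (SE, adjusted p = 0.0163), was detected on 9 arrays and overlapped with scramble, since scramble replicate 1 read 5.36 against 5.98 and 5.99 on the others. BIRC2 (cIAP1) averaged 10.46 ± 0.15 on siRNA arrays (SD, n = 9) and 10.88 ± 0.05 on scramble arrays (SD, n = 3), a difference of -0.42 ± 0.10 (SE, limma adjusted p = 0.0185). Its second probe gave -0.41 (adjusted p = 0.0233). LTBR, the lymphotoxin beta receptor, differed by -0.30 ± 0.09 (adjusted p = 0.0348). TRAF3 lost the call without scramble replicate 2 (0.105) or 3 (0.104), and BIRC2 and LTBR lost it without any one of the 3. LTBR also lost it under median scaling (0.0966), with the replicate block (0.0628), without any one ARF-1 array and without ARF-2 replicate 2 or 3 (0.0513 to 0.0584).

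The ligand TWEAK (TNFSF12) and its receptor TNFRSF12A moved in opposite directions between the sets. TNFRSF12A averaged 10.24 ± 0.09 in set ARF-1, 10.31 ± 0.07 in set ARF-2, 10.94 ± 0.13 in set ARF-4 and 10.76 ± 0.15 under scramble (SD, n = 3 each, F-test over the sets, limma adjusted p = 0.000933). TNFSF12 averaged 7.18 ± 0.01, 7.18 ± 0.22 and 6.40 ± 0.20 in the same 3 sets and 6.66 ± 0.11 under scramble (limma adjusted p = 0.00134). Neither passed over 9 arrays against scramble (adjusted p = 0.403 and 0.478). Taken singly against scramble, set ARF-1 had 5 falls and 2 rises among the 11 non-canonical genes and set ARF-2 had 5 falls and 1 rise. In set ARF-4 there were 0 of either, with 4 lower and 0 higher at an unadjusted p below 0.05. Over all 22195 probes, 5165 had an unadjusted p below 0.05 in that set, in either direction. The share of all genes called after adjustment was 15.3% lower and 15.2% higher in ARF-1. It was 14.1% lower and 14.7% higher in ARF-2, and 4.8% lower and 4.99% higher in ARF-4.

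Canonical signalling gave 3 falls and 1 rise among 24 genes (16.7%), with a median of -0.07. With the random block the 3 falls were lost, at adjusted p = 0.0646 for IRAK1, 0.168 for MYD88 and 0.0635 for MAP3K3. IRAK1, the kinase below MYD88, averaged 10.25 ± 0.39 on siRNA arrays (SD, n = 9) and 11.06 ± 0.05 on scramble arrays (SD, n = 3), a difference of -0.80 ± 0.20 (SE, limma adjusted p = 0.0218). Its sets differed (F-test adjusted p = 0.000108), at 10.13 ± 0.11 in ARF-1, 9.89 ± 0.06 in ARF-2 and 10.75 ± 0.06 in ARF-4. MYD88, the adaptor of interleukin 1 and Toll-like receptors, differed by -0.54 ± 0.16 (adjusted p = 0.0404). MAP3K3, a kinase that acts on IKK, differed by -0.65 ± 0.13 (adjusted p = 0.00595), but its second probe by 0.15 (adjusted p = 0.671). Without any one scramble array IRAK1 and MYD88 lost the call, and MAP3K3 lost it without replicate 2 (0.0524). MYD88 also lost it without any one ARF-1 or ARF-2 array (0.0529 to 0.0646), with the replicate block (0.052) and without the probe filter (0.0687).

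The interleukin 1 ligands went the other way. IL1A rose by 1.42 ± 0.25 on the log2 scale (SE, limma adjusted p = 0.00318), higher on 9 of 9 siRNA arrays than on any scramble array. IL1B read 9.30, 9.26 and 9.25 in set ARF-1, 9.92, 9.98 and 9.89 in set ARF-2, 8.10, 8.08 and 8.09 in set ARF-4, and 7.89, 7.86 and 7.75 under scramble. Its sets differed (F-test adjusted p = 2.8e-07), and over 9 arrays it missed the threshold (1.26 ± 0.40, adjusted p = 0.0561). It passed without any one ARF-4 array (adjusted p from 0.0251 to 0.027), and also without background correction (0.0479), with an offset of 50 (0.0342), under median scaling (0.00897), under the stricter filter (0.0406), with array weights (0.0025) and from 4 group means (2.62e-07). TRAF5 differed between the sets as well (F-test adjusted p = 7.05e-05), at 7.72 ± 0.06 in ARF-1, 7.91 ± 0.10 in ARF-2 and 7.00 ± 0.07 in ARF-4, against 7.30 ± 0.07 under scramble (SD, n = 3 each), although its second probe did not pass (0.193).

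Of 10 tested genes for steps that both arms share, 3 fell (30%) and 0 rose in limma. At an unadjusted p below 0.05, 3 were lower and 0 higher, beside 5930 of all 22195 probes in either direction. With the random block CREBBP kept the call, and EP300 (adjusted p = 0.0645) and KPNA2 (0.0935) lost it. The acetyltransferase CREBBP, a coactivator that RELA recruits, read 8.04, 7.99 and 8.10 in set ARF-1, 8.14, 8.08 and 8.37 in set ARF-2, 8.44, 8.55 and 8.54 in set ARF-4, and 8.88, 8.85 and 9.07 under scramble. It differed by -0.68 ± 0.14 (SE, adjusted p = 0.00593) and stepped up through the sets in the order of RELB (F-test adjusted p = 0.0147, or 0.262 under median scaling and 0.0581 or 0.0526 without ARF-4 replicate 2 or 3). Its relative EP300 differed by -0.67 ± 0.15 (adjusted p = 0.0112), with sets that also differed (F-test adjusted p = 0.0334). That F-test call was lost under median scaling (0.292), with array weights (0.0504) and without ARF-1 replicate 2 or 3, ARF-2 replicate 1, or ARF-4 replicate 2 or 3 (0.0516 to 0.138). The importin KPNA2 differed by -0.50 ± 0.12 (adjusted p = 0.0147) on its brighter probe and by -0.16 (adjusted p = 0.493) on the second. The proteasome subunit PSMB5 differed between the sets (F-test adjusted p = 0.00478, or 0.279 under median scaling), at 11.37 ± 0.05 in ARF-1, 11.39 ± 0.07 in ARF-2, 11.80 ± 0.04 in ARF-4 and 11.67 ± 0.08 under scramble. EP300 lost its call against scramble without scramble replicate 2 (0.0538) or 3 (0.0655), KPNA2 without any one of the 3.

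Of 17 other inhibitors and feedback regulators, 1 rose and 1 fell (11.8%, near the share of all genes), and both calls were lost with the random block (adjusted p = 0.126 for ZC3H12A and 0.0931 for COMMD1). ZC3H12A, an RNase that degrades cytokine transcripts, differed by -0.47 ± 0.13 (SE, limma adjusted p = 0.0296). COMMD1, which promotes degradation of RELA, rose by 0.40 ± 0.09 (adjusted p = 0.0108), a call lost under median scaling (0.375). Without any one scramble array ZC3H12A lost the call, and COMMD1 lost it without replicate 2 (0.0533) or 3 (0.0795). ZC3H12A also lost it with the replicate block (0.0519). The nuclear IkB protein gene NFKBIZ differed between the sets (F-test adjusted p = 0.00152), with means of 9.88 ± 0.07 in ARF-1, 10.05 ± 0.03 in ARF-2, 9.37 ± 0.10 in ARF-4 and 9.47 ± 0.18 under scramble (SD, n = 3 each), although its second probe did not pass (0.195), nor did the first under median scaling (0.0766). OTULIN, a deubiquitinase for linear chains, and TNIP2, a partner of A20, were both highest in set ARF-4 of the 3 sets (F-test adjusted p = 0.00242 and 0.0131). TNIP2 lost that call under median scaling (0.169) and without ARF-4 replicate 2 (0.0635).

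Among 39 tested textbook targets of NF-kB, 6 rose and 4 fell (25.6%), with a median of 0.06 and 15 of 39 below 0, so the list went both ways. With the random block, CCL2, CSF3, CXCL8 and NINJ1 kept the call. CCL2, a monocyte attractant, was undetected on 9 of 9 siRNA arrays and at least 3.4-fold lower than scramble (measured means 4.50 ± 0.12 and 6.68 ± 0.14, SD, n = 9 and n = 3). It passed the detection filter only through the 3 scramble arrays, where it was high. Its fall is counted among the 4, but is given as a description, without a p-value. The bound sets the scramble mean against the higher of the probe's own signal and the lowest detected signal on each siRNA array. CSF3, the granulocyte growth factor G-CSF, rose by 1.16 ± 0.15 on the log2 scale (SE, adjusted p = 0.000425). The neutrophil attractant CXCL8 rose by 1.10 ± 0.21 (adjusted p = 0.00445) and the membrane protein gene NINJ1 by 0.77 ± 0.11 (adjusted p = 0.000816), each higher on 9 of 9 siRNA arrays than on any scramble array.

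IL32, a cytokine gene, rose by 0.73 ± 0.14 (SE, limma adjusted p = 0.00541) on one probe and differed by 0.22 (adjusted p = 0.306) on the other. GADD45B, a stress-response gene, differed by -0.49 ± 0.12 (adjusted p = 0.0205). IL32 lost the call without scramble replicate 1 (0.0508) and GADD45B without any one of the 3. CFLAR and IER3 also rose and SDC4 and F3 also fell, with adjusted p between 0.0309 and 0.0428. All 4 calls were lost without any one scramble array, with the replicate block and with the random block, and those of CFLAR, IER3 and SDC4 also under median scaling.

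PTGS2, CCL20 and IL6, all inducible inflammatory genes, did not pass against scramble over 9 arrays, at log2 differences of 0.38 ± 0.40, 0.09 ± 0.40 and 0.54 ± 0.31 (SE), but their sets differed. PTGS2, which encodes cyclooxygenase 2, averaged 8.83 ± 0.09 in set ARF-1, 9.40 ± 0.09 in set ARF-2, 7.61 ± 0.09 in set ARF-4 and 8.23 ± 0.08 under scramble (SD, n = 3 each, F-test, limma adjusted p = 1.1e-06). CCL20 averaged 7.94 ± 0.20, 8.65 ± 0.13 and 6.84 ± 0.17 in the 3 sets and 7.72 ± 0.11 under scramble (limma adjusted p = 8.04e-06). IL6 averaged 10.32 ± 0.14, 10.87 ± 0.07 and 9.48 ± 0.12 in the sets and 9.68 ± 0.11 under scramble (limma adjusted p = 1.36e-05). For PTGS2 and CCL20 the ARF-4 arrays lay below scramble and the ARF-2 arrays above it, whereas RELB and NFKBIE were below scramble in all 3 sets and nearest to it in ARF-4.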

How the data were processed

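Per the labels, total RNA of transfected cells was hybridised to 12 one-colour bead arrays. The authors deposited an intensity per probe and array (bead summary signal, not normalized) and a detection p-value, with BeadStudio 2.3.47 named in the submitters' processing notes. Their deposited value table, also intensity, equals quantile-normalized signals (largest log2 difference 6.06e-07 on 12 columns).

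Of 47323 probes, 12 were empty. Signals were background-corrected and quantile-normalized with neqc (limma 3.58.1, R 4.3.3, offset 16) and taken to log2, and 22195 probes with a detection p below 0.05 on at least 3 arrays were kept. A gene is shown by its kept probe of highest mean. The platform annotation paired 30113 probes with 1 symbol, 8 with several and 17202 with none. The 9 siRNA arrays were compared with scramble by limma with 2 condition means, and the sets by contrasts of 4 group means and a moderated F-test, adjusted by Benjamini-Hochberg over all kept probes at 0.05. Scripts were tested on simulated data. Promoter windows came from RefSeq (GRCh38.p14), and no genome was used.

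Genes were named by rule: every member; per list, up to 6 genes with the smallest adjusted p against scramble and up to 3 in the F-test; 6 genes most and 3 least correlated with RELB; and ARF1. Members and lists were chosen with earlier results of these data known. CFLAR, IER3, SDC4 and F3 are named outside the rule. Alternatives covered background, normalization, probe filter, variance model, replicate block, set model, probe choice and each array left out. The number of arrays limits the precision.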

Additional observations from a re-analysis of the deposited data

Results flagged for a closer look

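The following genes, all named by the rule above, were noted because their response differed between the 3 siRNA sets in the F-test (limma, adjusted over 22195 probes), and no cause was tested. In that test 34 of 101 pathway genes passed (33.7%), beside 24.1% of all genes. The list is not complete, since others passed without being named by the rule, among them IL1RAP (adjusted p = 0.000154) and MAP3K7 (0.011). Among the members these were RELB (adjusted p = 0.013), NFKBIB (0.0177) and NFKBIE (0.000634). RELB and NFKBIE were highest in set ARF-4, and NFKBIB was lowest in set ARF-2 on the brighter of 2 probes.

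Among genes lowest in ARF-1 or ARF-2 and highest in ARF-4 of the 3 sets were CREBBP (adjusted p = 0.0147), EP300 (0.0334), IRAK1 (0.000108), MAP3K14 (0.011), OTULIN (0.00242), PSMB5 (0.00478), TNFRSF12A (0.000933) and TNIP2 (0.0131). The opposite order, with ARF-4 lowest, was seen for CCL20 (8.04e-06), CXCL8 (0.000377), IL1A (0.000933), IL1B (2.8e-07), IL6 (1.36e-05), NFKBIZ (0.00152), PTGS2 (1.1e-06), TNFSF12 (0.00134) and TRAF5 (7.05e-05). ZC3H12A (0.0308) and CSF3 (0.00357) were lowest in ARF-1 and highest in ARF-2. Under median scaling the call was lost for RELB (0.214), NFKBIB (0.146), CREBBP (0.262), EP300 (0.292), PSMB5 (0.279), TNIP2 (0.169), NFKBIZ (0.0766), ZC3H12A (0.617) and CSF3 (0.199). With 1 array left out it was lost for ZC3H12A in 6 fits (0.0501 to 0.111), EP300 in 5 (0.0516 to 0.138), CREBBP in 2 (0.0526 and 0.0581) and MAP3K14, TNIP2 and NFKBIB in 1 each (0.0585, 0.0635 and 0.0786). The second probes of TRAF5 (0.193), NFKBIZ (0.195) and NFKBIB (0.517) did not pass. No single array stood apart from the other 8 siRNA arrays for any of 39 genes examined. That check set the gap to the next array against the range of all siRNA arrays. Differences between sets widen this range, so the check can miss an array that stands apart within its own set.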

How the results depend on the processing

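Against scramble, 2423 probes passed with all 9 siRNA arrays, 5638 with array weights, 5267 as the average of 4 group means, 551 with a random block for the source name and 844 to 3029 when 1 array was left out (974, 844 and 865 without scramble replicate 1, 2 and 3). The replicate block gave 1796. Deviations of same-numbered arrays correlated at -0.022 to 0.037 over 18 pairs (median 0.007), others at -0.032 to 0.021 (median 0). The replicate numbers thus showed no strong pairing, but correlations over all kept probes cannot exclude a batch shared by same-numbered arrays. Median scaling moved the median of all genes by -0.108 in set ARF-2 and the share of higher calls to 30.4% of 1801, beside 51.5% of 2423. It also left 3071 of 5741 calls in set ARF-1, 3180 of 5452 in ARF-2, 662 of 1845 in ARF-4, 1813 of 4401 in the F-test, 1707 of 4353 for ARF-4 minus ARF-1 and 1655 of 4277 for ARF-4 minus ARF-2. Set ARF-4 had 2995 calls without background correction and with the authors' values, 2817 with a trended prior and 1118 to 1785 with 1 array left out. ARF-2 minus ARF-1 had 14 calls, 109 without background correction and with the authors' values, 54 with an offset of 50, 4 under median scaling, 9 under cyclic loess, 48 under the strict filter, 72 with a trended prior, 3 with the replicate block and 1 to 10 with 1 array left out. Pathway genes past the threshold numbered 23, with 37 under array weights, 38 from 4 group means, 6 with the random block, 17 with the replicate block and 7 to 26 with 1 array left out. Members whose sets differed numbered 3, with 1 (NFKBIE) under median scaling and 2 to 4 with 1 array left out. No called value changed sign in 3207 comparisons with an alternative. The causes were not tested. REL and the second NFKBIB probe lay near background, where small differences cannot be shown.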
